A study of Homo sapiens with 18 samples.

Results

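Transcripts of 31 genes of cholesterol and fatty acid synthesis were examined in BRCA1-mutated breast cancer cells treated with the PARP inhibitor olaparib. The genes were chosen by symbol, and their rows were found by Ensembl identifier, which gave 31 of the 35044 genes in the count table. All 31 passed the filter on low counts, which left 18335 genes for testing. By role, 7 genes belong to the cytosolic acetyl-CoA and mevalonate steps, 11 to the squalene and sterol steps, 6 to the SREBP factors with their escort, retention and sterol transfer proteins, and 7 to fatty acid synthesis and modification.

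HCC1937 is an established breast cancer cell line with mutated BRCA1. HCC1937-EV carries an empty vector, HCC1937-OE-BRCA1 overexpresses wild type BRCA1, and both were sequenced untreated and after 12 h and 24 h of olaparib, with 3 libraries for each of 6 conditions. The treatment label reads olaparib in all 18 libraries, so untreated libraries were recognised by the 0 in their titles. The genotype label of HCC1937-EV reads WT, whereas the design text calls this line BRCA1 mutated. The promoter behind the overexpressed BRCA1 and whether either line is a single clone are not given in the sources used here. Nothing in the labels says that replicates came from separate cultures, so p-values measure the spread between these libraries, which may be technical.

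Cholesterol and the isoprenoids are built from acetyl-CoA through mevalonate, farnesyl diphosphate and squalene, and fatty acids are built from the same cytosolic acetyl-CoA through malonyl-CoA. The SREBP transcription factors, held in the endoplasmic reticulum by INSIG proteins and escorted to the Golgi by SCAP when sterols are low, raise transcription of most of these enzymes. SREBP2 is known mainly for the cholesterol branch and SREBP1 mainly for the fatty acid branch. Breast cancer cells are known for high lipid synthesis.

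Total counts lay between 15081973 and 17571922 per library, and the 31 genes took 0.378% to 0.591% of them. Levels are given as CPM, counts scaled to TMM-normalised library sizes. Log2 CPM correlated at r = 0.986 to 0.995 between libraries of the same condition, but at 0.780 to 0.801 between the lines. BRCA1 itself, the gene that was overexpressed, had a log2 difference between the untreated lines of 0.24 that was not called, with an adjusted p of 0.0654 by edgeR's quasi-likelihood test. In the libraries labelled HCC1937-EV, the epithelial marker EPCAM did not exceed 0.062 CPM and the basal marker KRT5 averaged 0.0825 CPM untreated, against 310.1 CPM and 1550 CPM in those labelled HCC1937-OE-BRCA1. CDH1 and KRT19 were also under 1 CPM on average in HCC1937-EV, while KRT8 lay at 1683 to 2182 CPM, KRT18 at 737.5 to 1068 CPM and KRT7 at 441.1 to 624.2 CPM there. The mesenchymal marker VIM averaged 306.0 CPM in the first and 1.05 CPM in the second. Of 6 breast epithelium markers, 3 reached 1 CPM in HCC1937-EV (summed 2886 to 3789 CPM) and 6 in HCC1937-OE-BRCA1 (5063 to 8708 CPM), and of 6 basal markers, 2 (145.0 to 205.2 CPM) and 6 (2918 to 4708 CPM). Of 4 mesenchymal markers, 3 reached 1 CPM in HCC1937-EV (365.4 to 431.7 CPM) and 2 in HCC1937-OE-BRCA1 (7.33 to 12.5 CPM). A difference between the lines therefore cannot be told apart from these other differences between the cultures, and every direction given between the lines is one between libraries so labelled. Within a line, the libraries also differed in how a gene's deviation from the line's mean followed its GC content, with Spearman's rho between -0.586 and 0.616. In bulk RNA, fewer cells of a type and less RNA per cell cannot be told apart.

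Promoter sequences are shown for the 7 of 9 genes called after treatment whose windows hold a CCAAT box or the classical sterol regulatory element. Both are classical elements of sterol promoters. Of these 7, 6 were called higher in HCC1937-EV and SREBF2 was called lower in HCC1937-OE-BRCA1. Each stretch holds 30 bases, 5′ to 3′ on the strand of the gene, from RefSeq windows on GRCh38.p14 that run from 250 bases before to 50 after the annotated start. Capitals mark the motif, written ATTGG where CCAAT lies on the other strand.
MVD (chr16:88663159-88663188, minus strand): ggctcgcacgggCCAATcctgtggtagcgc
FDPS (chr1:155308803-155308832, plus strand): tcccgcgggcacATTGGgagttgtagtcta
TM7SF2 (chr11:65111786-65111815, plus strand): ccccgagcgccgATTGGctggtgtgctggg
NSDHL (chrX:152830967-152830996, plus strand): cgccgagctgggCCAATcctcttggtggag
EBP (chrX:48521766-48521795, plus strand): cttcgcttcaccATTGGctcgctccgtaag
INSIG1 (chr7:155297696-155297725, plus strand): cgccggcctcccATTGGttgcggccgcctc
SREBF2 (chr22:41832961-41832990, plus strand): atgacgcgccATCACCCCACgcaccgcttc

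Windows were at hand for 27 of the 31 genes, with none for ACAT2, FASN, FDFT1 and SQLE. CCAAT, searched on both strands, was found in 20 of the 27 genes and in 24 of their 37 windows, against 34.61% of all 35116 windows. The motif begins 85 bases before the RefSeq start in MVD, 51 in FDPS, 74 in TM7SF2, 84 in NSDHL, 30 in EBP and 170 in INSIG1. These starts can differ from the gene positions given below, which came from GENCODE. The stretches of FDPS, NSDHL and EBP lie wholly within those gene positions. CCAAT was in no window of PMVK or CYP51A1. The sterol regulatory element was searched in its classical form only, and only within these windows. This form was found in SREBF2 alone, 134 bases before the start, and in 0.15% of all windows. The capitals in the SREBF2 stretch show the match. Variant forms were not searched, so whether the other genes lack the element was not tested. The GC box GGGCGG was in 26 of the 27 genes and 33 of their 37 windows, against 44.95% of all windows and 63.63% of the windows of tested genes. None of the 3 motifs contains another. These matches describe letters in a window and say nothing of binding.

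Before treatment the synthesis genes did not stand high or low as one group in either line: 11 of 31 were higher and 12 lower in HCC1937-OE-BRCA1 than in HCC1937-EV. That is 74.2% called, and 72.7% of all 18335 genes tested were called in the same comparison. Of the 7 fatty acid genes, 6 were lower and none was higher in HCC1937-OE-BRCA1, while of the 18 enzymes of the mevalonate and sterol steps 9 were higher and 5 lower. The share of all genes called lower was 33.3% and the share called higher 39.4%.

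SCD and FASN held the highest levels in both lines. Per kilobase of exonic length, untreated HCC1937-EV had most of SCD (230.4 CPM per kb), which desaturates stearate to oleate, then FASN (163.2), which makes palmitate, and ACLY (98.3), which releases cytosolic acetyl-CoA from citrate. In untreated HCC1937-OE-BRCA1, FASN (118.3 CPM per kb) and SCD (107.3) lay highest and differed by less than the spread of FASN between its libraries. The sterol reductase gene DHCR7 followed at 74.8 CPM per kb, ahead of ACLY at 55.6. Other fatty acid genes lay low, with FADS2 at 6.66 and 1.73 CPM per kb and ELOVL6 at 8.52 and 4.898 in untreated HCC1937-EV and HCC1937-OE-BRCA1. The lowest members were TM7SF2 in HCC1937-EV (1.119 CPM per kb) and CYP51A1 in HCC1937-OE-BRCA1 (1.498), around medians of 12.8 and 11.8.

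**Figure D1:**
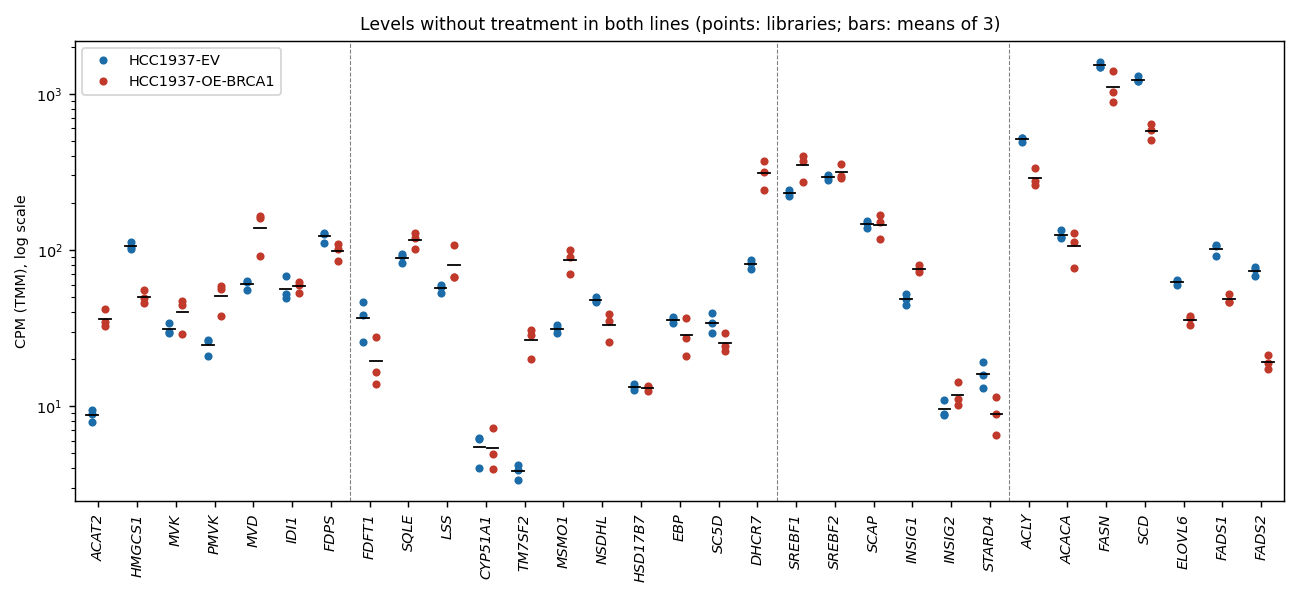
Level of each of the 31 genes in the 3 untreated libraries of each line, as TMM-normalised CPM on a log axis, in the order of the 4 roles divided by dashed lines, with a bar at each mean. TM7SF2, ACAT2, DHCR7 and MSMO1 sit higher in HCC1937-OE-BRCA1 and FADS2, SCD, HMGCS1 and FADS1 sit lower, with no overlap between the libraries of the lines.

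TM7SF2, a sterol C14-reductase, had the largest difference. Untreated HCC1937-EV measured 3.35, 3.89 and 4.19 CPM of it, and untreated HCC1937-OE-BRCA1 19.9, 30.9 and 28.7 CPM. ACAT2, the cytosolic thiolase that joins acetyl-CoA units, measured 9.38, 8.90 and 7.96 CPM against 34.8, 41.6 and 32.5 CPM. Neither gene's libraries overlapped between the lines, and the log2 differences were 2.79 ± 0.18 (SE; adjusted p = 9.83e-12, edgeR quasi-likelihood test) and 2.05 ± 0.15. ACAT2 shares 33.9% of its exonic bases with SOD2-OT1 and 26.5% with SOD2 on the opposite strand, so its level is uncertain, because the strandedness of the counting is not given in the sources used here. DHCR7, the last enzyme of cholesterol synthesis in one branch, had 75.2, 82.1 and 85.8 CPM against 243.9, 316.8 and 372.6 CPM. MSMO1, the sterol C4-methyl oxidase, had 33.2, 29.2 and 31.4 CPM against 100.3, 89.9 and 69.8 CPM. Both were higher in every HCC1937-OE-BRCA1 library, with log2 differences of 1.94 ± 0.12 and 1.47 ± 0.13. The mevalonate genes MVD and PMVK were also higher, by 1.201 ± 0.19 and 1.06 ± 0.18 on the log2 scale.

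On the lower side, FADS2, the delta-6 desaturase, measured 67.7, 77.3 and 75.4 CPM in HCC1937-EV and 17.4, 18.9 and 21.1 CPM in HCC1937-OE-BRCA1. SCD measured 1200, 1215 and 1292 CPM against 638.3, 504.9 and 583.3 CPM. FADS1, the delta-5 desaturase, measured 91.1, 107.2 and 106.1 CPM against 46.6, 46.5 and 52.3 CPM. All 3 desaturase genes were lower in each HCC1937-OE-BRCA1 library than in any of HCC1937-EV, with log2 differences of -1.94 ± 0.12, -1.10 ± 0.10 and -1.07 ± 0.10. Outside this branch HMGCS1, the cytosolic HMG-CoA synthase, was lower at 55.5, 49.2 and 45.4 CPM against 112.1, 104.6 and 102.0 CPM (log2 difference -1.09 ± 0.10). The other lower genes were ACLY (-0.82), ELOVL6 (-0.80), the fatty acid elongase, FASN (-0.46), FDFT1 (-0.93), STARD4 (-0.84), NSDHL (-0.53), SC5D (-0.43) and FDPS (-0.31). ACACA, the acetyl-CoA carboxylase, was the fatty acid gene that was not called, at -0.25. Among the regulators INSIG1 (0.64) and SREBF1 (0.59) were higher, while SREBF2 (0.11), SCAP (-0.02) and INSIG2 (0.31) were not called. The remaining higher genes were LSS, lanosterol synthase (0.50), SQLE, squalene epoxidase (0.37), and MVK (0.37), and EBP (-0.33), IDI1 (0.05), HSD17B7 (-0.02) and CYP51A1 (-0.03) were not called. Libraries of the lines overlapped for FDFT1 and MVK among the called genes. For the 10 genes with a log2 difference beyond 1 in either direction, adjusted p by edgeR's quasi-likelihood test lay between 3.63e-12 for FADS2 and 1.97e-05 for PMVK. Leaving out 1 library at a time gave between 20 and 23 calls, against 68.2% to 71.4% of all genes. MVK was called in 2 of these 6 fits, SC5D in 3 and FDPS in 4, and LSS lost its call at 0.244 without untreated replicate 3 of HCC1937-OE-BRCA1.

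After 24 h of olaparib in HCC1937-EV, 8 of the 31 genes were called higher and none lower. The 8 were PMVK, MVD and FDPS of the mevalonate steps, CYP51A1, TM7SF2, NSDHL and EBP of the sterol steps, and INSIG1, the retention factor. That is 25.8% of the genes, against 8.62% of all genes tested called higher, 5.12% called lower and 13.7% called in all. None of the 7 fatty acid genes was called, with log2 fold changes between -0.27 for SCD and 0.29 for FASN. The median log2 fold change was 0.44 over the mevalonate genes, 0.37 over the sterol genes, 0.22 over the SREBP group and -0.07 over the fatty acid genes, and 0 over all genes tested. Libraries of treated and untreated cells did not overlap for 17 higher and 2 lower genes of the 31, against 20.8% and 19% of all genes tested.

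**Figure D2:**
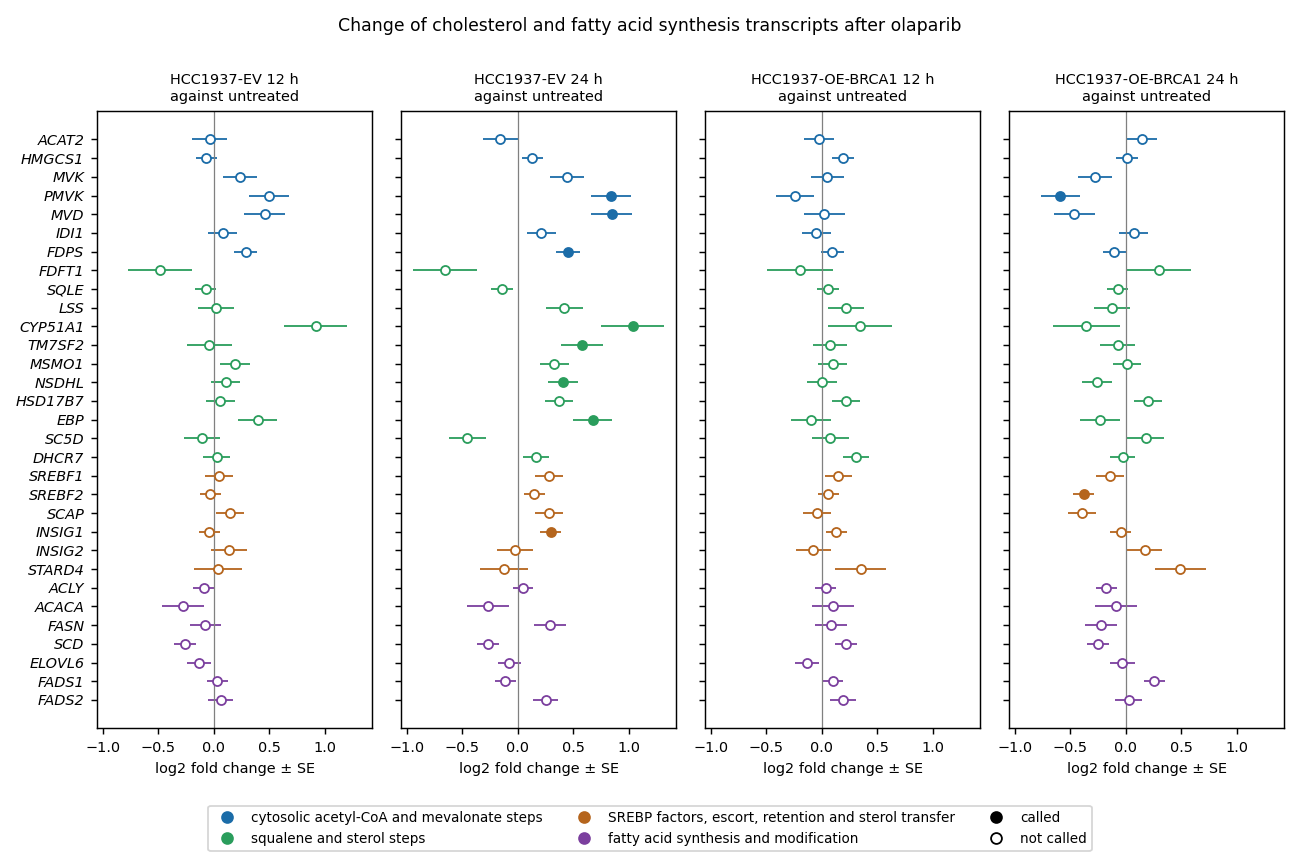
Log2 fold change with its standard error for the 31 genes, in rows by role, in 4 panels for 12 h and 24 h of olaparib in each line. Filled points passed an adjusted p of 0.05; 8 filled points lie to the right in HCC1937-EV at 24 h, 2 to the left in HCC1937-OE-BRCA1 at 24 h, and none in either panel at 12 h.

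PMVK, phosphomevalonate kinase (ENSG00000163344.6, chromosome 1, 154924734 to 154936991, minus strand, GRCh38), measured 20.9, 26.5 and 26.2 CPM untreated, 27.3, 33.2 and 43.5 CPM at 12 h and 45.6, 48.2 and 37.7 CPM at 24 h. Each 24 h library lay above every untreated one, and the 12 h libraries lay above the untreated ones and overlapped with the later ones. The log2 fold change at 24 h was 0.84 ± 0.18 (adjusted p = 0.00686, edgeR quasi-likelihood test). MVD, mevalonate diphosphate decarboxylase (ENSG00000167508.12, chromosome 16, 88651935 to 88663161, minus strand), measured 55.7, 63.4 and 62.4 CPM untreated, 66.9, 74.5 and 108.4 CPM at 12 h and 107.6, 113.6 and 105.6 CPM at 24 h. Here too the 24 h libraries did not overlap with the untreated ones. At 12 h, 1 library, replicate 3, lay at the level of the 24 h ones. Its trend with GC content (Spearman's rho) was 0.616, against -0.562 and -0.199 in the other 12 h libraries. The log2 fold change of MVD at 24 h was 0.85 ± 0.19 (adjusted p = 0.00801, edgeR quasi-likelihood test). FDPS, farnesyl diphosphate synthase (ENSG00000160752.15, chromosome 1, 155308748 to 155320666, plus strand), measured 110.9, 127.1 and 128.7 CPM untreated, 137.7, 138.0 and 172.0 CPM at 12 h and 168.1, 172.3 and 161.8 CPM at 24 h. Both treated groups lay above the untreated one, and the log2 fold change at 24 h was 0.45 ± 0.11 (adjusted p = 0.0109). RUSC1-AS1 on the other strand covers 18.6% of its exonic bases.

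CYP51A1, lanosterol 14-alpha-demethylase (ENSG00000001630.17, chromosome 7, 92112151 to 92134803, minus strand), had the largest change, at a low level. It measured 4.04, 6.18 and 6.23 CPM untreated, 4.995, 13.8 and 12.4 CPM at 12 h and 9.03, 11.6 and 13.1 CPM at 24 h. The 24 h libraries all lay above the untreated ones, whereas 1 of the 3 at 12 h lay among them. Its log2 fold change was 1.04 ± 0.28 (adjusted p = 0.0212). AC000120.2 on the same strand shares 79.4% of its exonic bases, so reads could have been split between both genes and the level is uncertain. EBP, the sterol isomerase (ENSG00000147155.11, chromosome X, 48521158 to 48528716, plus strand), measured 33.9, 37.1 and 36.1 CPM untreated, 43.7, 39.1 and 58.05 CPM at 12 h and 64.7, 58.2 and 47.98 CPM at 24 h. Both treated groups lay above the untreated one, and the log2 fold change at 24 h was 0.68 ± 0.18 (adjusted p = 0.0179).

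NSDHL, a sterol dehydrogenase that acts with MSMO1 (ENSG00000147383.11, chromosome X, 152830967 to 152869729, plus strand), measured 47.0, 50.3 and 46.2 CPM untreated, 46.6, 47.1 and 61.2 CPM at 12 h and 63.5, 65.2 and 61.6 CPM at 24 h. TM7SF2 (ENSG00000149809.17, chromosome 11, 65111845 to 65116384, plus strand) measured 3.07, 4.19 and 3.87 CPM at 12 h and 4.66, 5.72 and 6.71 CPM at 24 h. INSIG1 (ENSG00000186480.13, chromosome 7, 155297776 to 155310235, plus strand) measured 48.8, 44.4 and 52.4 CPM untreated, 50.7, 46.9 and 44.1 CPM at 12 h and 64.5, 56.7 and 57.8 CPM at 24 h. For all 3 the 24 h libraries lay above the untreated ones and the 12 h libraries overlapped with them. Their log2 fold changes at 24 h were 0.41 ± 0.13, 0.58 ± 0.19 and 0.30 ± 0.10, with adjusted p of 0.0434, 0.0481 and 0.0433. Just outside the threshold of edgeR's quasi-likelihood test lay HSD17B7 at 0.37 (adjusted p = 0.0533) and MVK at 0.44 (adjusted p = 0.0582), and just inside it TM7SF2. The lower genes nearest to it were SC5D at -0.45 (adjusted p = 0.0703) and SCD at -0.27 (adjusted p = 0.0719), both without overlap. The 23 genes that were not called ranged from -0.65 for FDFT1, squalene synthase, to MVK. A pseudogene copy of HSD17B7 could take some of its reads.

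**Figure D3:**
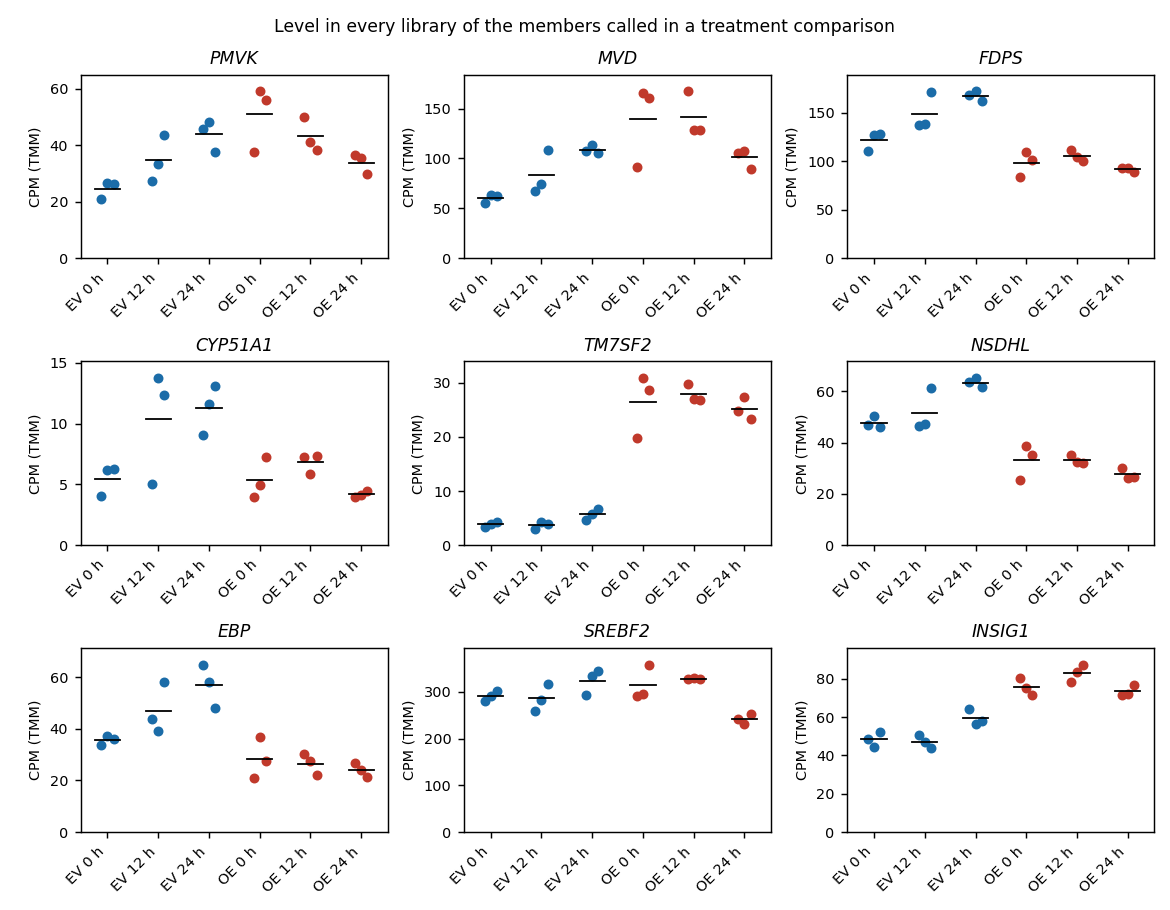
Level in CPM of the 9 genes called after treatment, one panel each from 0, with 3 points for each of 6 conditions (blue HCC1937-EV, red HCC1937-OE-BRCA1) and a bar at each mean. The 24 h points of HCC1937-EV lie above its untreated points in 8 panels, and in the SREBF2 panel the 24 h points of HCC1937-OE-BRCA1 lie below all its others.

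The 8 calls rested on small groups. Without untreated replicate 1, 0 of the 31 genes were called and 22 of 31 log2 fold changes were still positive. The share of all genes called fell as well, from 13.7% to 2.45%. MVD and PMVK were called in 5 of the 6 fits that left out 1 library, FDPS in 4, CYP51A1 and EBP in 2, and INSIG1, NSDHL and TM7SF2 in none. Over these 6 fits, 2.45% to 11.8% of all genes were called. With the 6 compared libraries alone in the fit, 16 genes were higher, among them all 8, and 3 lower (FDFT1, SC5D and SCD). The share of all genes called was 34.9% in that fit. DESeq2's Wald test called 10 higher, among them all 8, and SC5D and SCD lower, against 18.6% of all genes. Without a filter on low counts FDFT1 and SC5D were called lower, and with at least 10 counts in every library SCD was, against 8.77% and 23.7% of all genes called.

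At 12 h in HCC1937-EV none of the 31 genes was called by edgeR's quasi-likelihood test or by DESeq2's Wald test, and 6 had an unadjusted p under 0.05. Of all genes tested, 0.0436% were called and 16.2% had an unadjusted p under 0.05. CYP51A1 (0.92 ± 0.28), PMVK (0.50 ± 0.18), MVD (0.46 ± 0.19), EBP (0.40 ± 0.18), FDPS (0.29 ± 0.11) and SCD (-0.26 ± 0.10) were those 6. Without a filter on low counts, CYP51A1, MVD and PMVK were called, against 2.33% of all genes. Without replicate 1 of the 12 h libraries CYP51A1 was called, against 2.45% of all genes. Between 12 h and 24 h no gene was called by either test, 9 had an unadjusted p under 0.05, while 0.18% of all genes tested were called and 9.2% had an unadjusted p under 0.05. The largest difference from 12 h to 24 h was that of TM7SF2, 0.62 ± 0.19 (adjusted p = 0.287). The comparisons of 12 h and 24 h with untreated cells share the untreated libraries.

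In HCC1937-OE-BRCA1 at 24 h, 2 of the 31 genes were called lower and none higher. That is 6.45%, against 3.55% of all genes tested called lower, 4.71% called higher and 8.26% called in all, so the share is near that of all genes. SREBF2, the gene of the SREBP2 factor (ENSG00000198911.12, chromosome 22, 41833079 to 41907308, plus strand), measured 290.5, 296.0 and 357.5 CPM untreated, 327.2, 330.1 and 326.6 CPM at 12 h and 241.8, 230.2 and 253.4 CPM at 24 h. All 24 h libraries lay below all untreated and 12 h libraries. The log2 fold change was -0.38 ± 0.10 (adjusted p = 0.0193, edgeR quasi-likelihood test). PMVK measured 37.7, 59.1 and 55.9 CPM untreated, 49.9, 41.0 and 38.3 CPM at 12 h and 36.5, 35.3 and 29.7 CPM at 24 h. The highest 24 h library lay just below the lowest untreated one, replicate 1, and the log2 fold change was -0.59 ± 0.18 (adjusted p = 0.0419). SCAP, the escort protein, lay just outside the threshold at -0.40 ± 0.13 (adjusted p = 0.0575).

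In HCC1937-OE-BRCA1, MVD measured 91.6, 165.5 and 160.2 CPM untreated, 167.4, 128.9 and 128.4 CPM at 12 h and 105.5, 108.0 and 89.5 CPM at 24 h. Untreated replicate 1 lay among the 24 h libraries, and the log2 fold change of -0.46 ± 0.18 was not called. Besides both called genes, 5 had an unadjusted p under 0.05 at 24 h, making 7 of 31 against 23.6% of all genes tested: MVD, SCAP and SCD (-0.25) with lower values and FADS1 (0.26) and STARD4 (0.49) with higher ones. Untreated replicate 1 weighed on calls among all genes: without it 17.7% of them were called, against 8.26% with it. Of the 31 genes, 6 were then lower and STARD4 higher. Without any one of the other libraries at most 1 of the 31 was called, and 3.42% to 4.86% of all genes. With the 6 compared libraries alone in the fit, none was called, against 4.97% of all genes. At 12 h none of the 31 genes was called by edgeR's quasi-likelihood or DESeq2's Wald test and 2 had an unadjusted p under 0.05, DHCR7 (0.31 ± 0.12) and SCD (0.22 ± 0.10), while 2.31% of all genes tested were called and 11.7% had an unadjusted p under 0.05.

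From 12 h to 24 h in HCC1937-OE-BRCA1, SCD and SREBF2 fell, against 0.862% of all genes tested called lower and 1.65% called in all. SCD measured 630.4, 685.4 and 696.5 CPM at 12 h and 470.2, 460.7 and 524.5 CPM at 24 h, without overlap (log2 fold change -0.47 ± 0.10, adjusted p = 0.0182). SREBF2 fell by 0.44 on the log2 scale (adjusted p = 0.0236). Lower libraries without overlap were seen for 19 of the 31 genes, against 17% of all genes tested. Spearman's rho of GC content with the log2 fold change from 12 h to 24 h was -0.569 across the 31 genes and -0.439 across all genes. With 1 library left out at a time, SCD was called in 2 of 6 fits and SREBF2 in 0. The share of all genes called fell as well, from 1.65% to between 0.366% and 0.546% in these fits.

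The difference between the lines in the response at 24 h was tested itself, as the response of HCC1937-OE-BRCA1 minus that of HCC1937-EV. It was called negative for 9 of the 31 genes and positive for none. That is 29%, against 11.2% of all genes tested called negative, 8.16% called positive and 19.4% called in all. The 9 were PMVK (-1.43 ± 0.25), CYP51A1 (-1.39 ± 0.41), MVD (-1.31 ± 0.26), EBP (-0.91 ± 0.25), MVK (-0.72 ± 0.22), SCAP (-0.68 ± 0.18), NSDHL (-0.67 ± 0.19), FDPS (-0.56 ± 0.15) and SREBF2 (-0.53 ± 0.14), with adjusted p between 0.00122 and 0.0247 by edgeR's quasi-likelihood test. MVK is the mevalonate kinase. None of the fatty acid genes was among them, and the difference for FASN was -0.52 ± 0.20 (adjusted p = 0.0771). SC5D and FADS1 were called positive as well with a replicate block, with DESeq2's Wald test and with at least 10 counts in every library. With the Wald test and with that minimum count, INSIG1 and TM7SF2 were also called negative, against 23% and 32% of all genes called. MVD, PMVK, SCAP and SREBF2 were called in all 12 fits that left out 1 library, and MVK in 5. Over these 12 fits, 10.9% to 29.2% of all genes were called. At 12 h the same difference was called for none of the 31 genes by edgeR's quasi-likelihood test, for SCD alone by DESeq2's Wald test, and 2 genes had an unadjusted p under 0.05, with 0.518% of all genes tested called and 14.7% under the unadjusted threshold.

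Values in each library show what lay behind these differences. In HCC1937-OE-BRCA1, FDPS measured 84.4, 109.7 and 101.6 CPM untreated, 111.5, 104.4 and 100.2 CPM at 12 h and 93.4, 93.2 and 88.9 CPM at 24 h. CYP51A1 measured 3.94, 4.93 and 7.24 CPM, then 7.29, 5.87 and 7.31 CPM, then 3.99, 4.11 and 4.48 CPM in the same order. EBP measured 21.0, 36.7 and 27.4 CPM, then 30.1, 27.4 and 22.0 CPM, then 26.9, 24.1 and 21.3 CPM. The 24 h libraries of these 3 genes overlapped with the untreated ones, and none was called in this line (log2 fold changes -0.10, -0.35 and -0.23). NSDHL measured 25.6, 38.8 and 35.2 CPM untreated, 35.1, 32.4 and 32.2 CPM at 12 h and 30.2, 26.4 and 26.4 CPM at 24 h, again with overlap (-0.26). TM7SF2 measured 29.8, 26.9 and 26.8 CPM at 12 h and 24.8, 27.4 and 23.3 CPM at 24 h. INSIG1 measured 80.3, 75.3 and 71.7 CPM untreated, 78.2, 83.4 and 87.3 CPM at 12 h and 71.6, 72.1 and 76.6 CPM at 24 h. Neither TM7SF2 nor INSIG1 was called in this line, or for the difference between the lines by edgeR's quasi-likelihood test. SCAP had 139.1, 153.7 and 149.6 CPM untreated and 176.7, 189.5 and 172.2 CPM at 24 h in HCC1937-EV, but 116.9, 151.2 and 167.5 CPM and then 109.0, 111.1 and 110.9 CPM in the other line. Its 24 h libraries lay above the untreated ones in the first and below them in the second, although neither change was called by itself. For SREBF2 in HCC1937-EV, 281.3, 292.0 and 302.3 CPM untreated, 259.4, 281.6 and 317.3 CPM at 12 h and 292.4, 334.4 and 345.5 CPM at 24 h overlapped, with a log2 fold change of 0.15 at 24 h.

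GC content moved with these results. The trend of gene level with GC content was negative in the 3 untreated HCC1937-EV libraries (rho -0.555, -0.218 and -0.412) and positive at 24 h (0.26, 0.58 and 0.403). At 12 h in HCC1937-EV it was -0.562, -0.199 and 0.616. Replicate 3, with the last of these values, was the highest 12 h library for PMVK, MVD, FDPS, EBP and NSDHL. For TM7SF2 and CYP51A1 the highest was replicate 2, and for INSIG1 replicate 3 was the lowest. In HCC1937-OE-BRCA1 the trend was -0.586, 0.293 and 0.547 untreated, 0.545, 0.179 and 0.211 at 12 h and -0.29, -0.393 and -0.44 at 24 h. The longest annotated transcripts of PMVK, MVD and TM7SF2 hold 59.5%, 63.7% and 64.2% G and C, and those of CYP51A1 and INSIG1 41.5% and 46.0%. The median was 50.2% over the 31 genes and 48.7% over all genes tested. Across the 31 genes, Spearman's rho of GC content with the log2 fold change at 24 h was 0.455 in HCC1937-EV and -0.596 in HCC1937-OE-BRCA1, and 0.434 and -0.279 across all genes, which share their libraries.

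**Figure D4:**
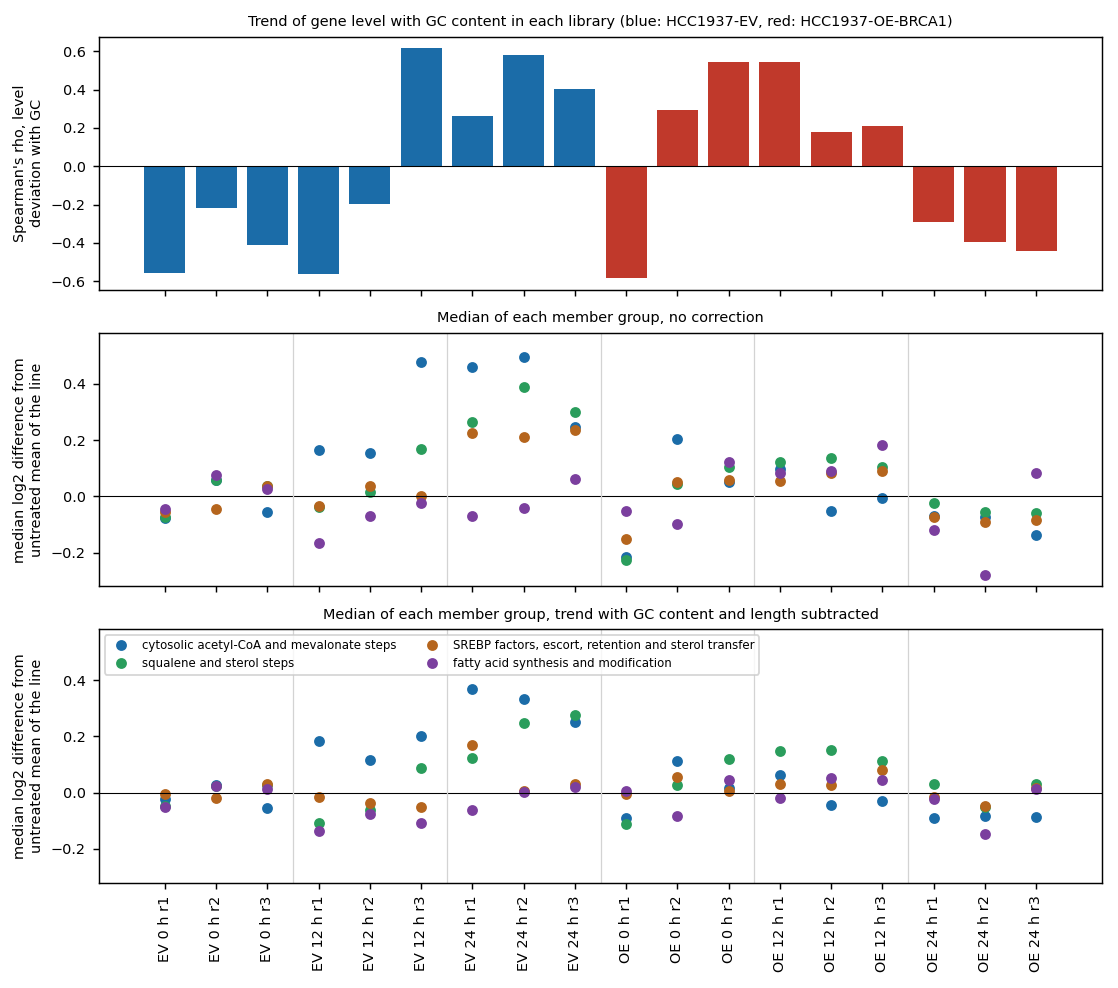
Upper panel, Spearman's rho of each gene's deviation from its line's mean with GC content, by library. Lower panels, the median log2 difference from the untreated mean of the line for the 4 roles in each library, without and with the trend on GC content and length subtracted. Medians of the mevalonate genes at 24 h in HCC1937-EV span 0.247 to 0.497 without and 0.25 to 0.367 with the subtraction.

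When each library's trend on GC content and length entered the fit as an offset, 24 h of olaparib in HCC1937-EV gave 10 higher genes and 1 lower, against 14.4% of all genes called. Of the 8 calls 6 were kept, and NSDHL (0.23) and TM7SF2 (0.16, adjusted p = 0.543) were lost. HMGCS1 (0.29), IDI1 (0.35), MSMO1 (0.44) and HSD17B7 (0.50) were gained as higher and SCD (-0.23) as lower. The log2 fold change of PMVK was 0.41, of MVD 0.48, of FDPS 0.24 and of EBP 0.45 with the offset, smaller than without it, while that of CYP51A1 was 1.13 and that of INSIG1 0.29. In HCC1937-OE-BRCA1 at 24 h the offset gave 2 higher (FADS1 and STARD4) and 4 lower genes (PMVK, SCAP, SCD and SREBF2), with PMVK at -0.34 and SREBF2 at -0.29, while the share of all genes called went from 8.26% to 15.5%. The difference between the lines was then called negative for 11 genes, 7 of the 9 among them, against 18.2% of all genes called. MVK and SCAP were lost, and HMGCS1, IDI1, INSIG1 (-0.36) and MSMO1 were gained, with PMVK at -0.75 and MVD at -0.70. From 12 h to 24 h in HCC1937-OE-BRCA1, the offset gave 4 lower genes (HMGCS1, MSMO1, SCD and SREBF2), against 4.71% of all genes called. The median log2 fold change over the 31 genes was -0.18 there without the offset and -0.095 with it. The part of GC content in the results was not tested beyond this.

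**Figure D5:**
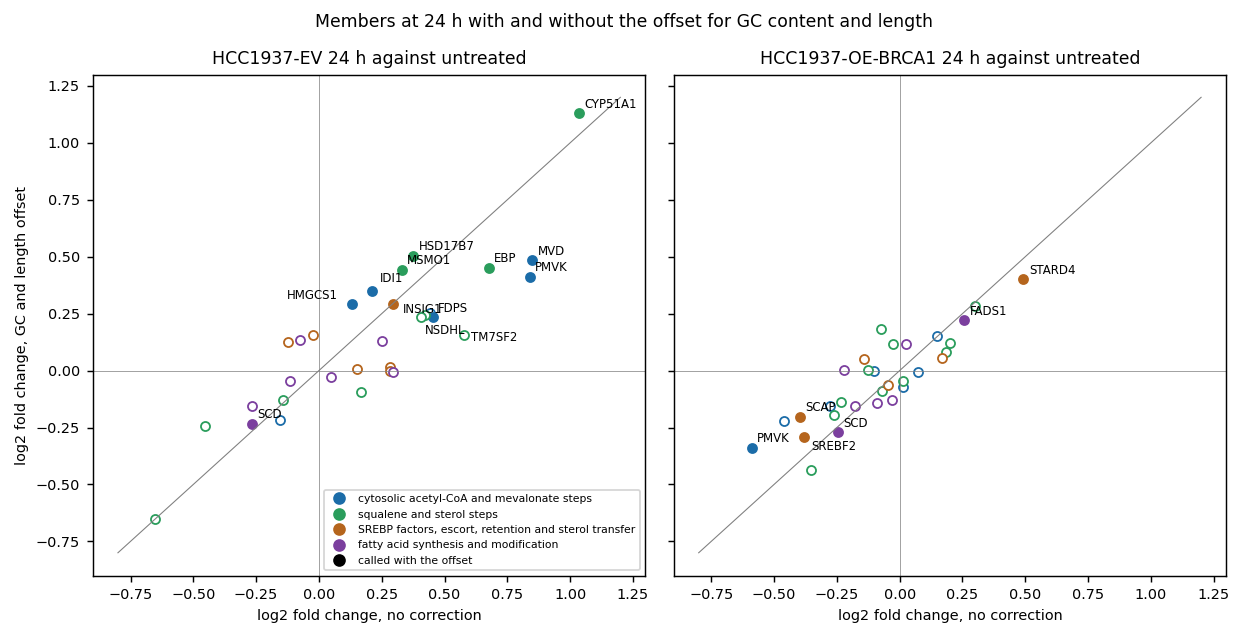
Log2 fold change at 24 h against untreated without (horizontal) and with (vertical) the offset for GC content and length, one point for each of the 31 genes, coloured by role and filled where called with the offset. The grey line marks equal values; PMVK, MVD and EBP lie below it and CYP51A1, HSD17B7 and MSMO1 above it in HCC1937-EV.

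Per library, the median over the 7 mevalonate genes lay 0.247 to 0.497 above the untreated mean on the log2 scale at 24 h in HCC1937-EV, and that over the 11 sterol genes 0.264 to 0.39. The median over the 7 fatty acid genes lay between -0.069 and 0.06. With the GC trend subtracted, the sterol medians were 0.124 to 0.275 and those of the SREBP group 0.007 to 0.169. In HCC1937-OE-BRCA1 at 24 h the mevalonate medians were -0.139 to -0.069.

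Genes of neighbouring pathways were counted in the same 4 treatment comparisons. Of all genes tested, 13.7% were called at 24 h in HCC1937-EV, and 2.31% and 8.26% at 12 h and 24 h in HCC1937-OE-BRCA1. Of 17 tested genes of SREBP processing and sterol sensing, TRIB1 was higher at 12 h in HCC1937-OE-BRCA1 (0.42), and none was called in the other 3. Of 14 isoprenoid and prenylation genes, COQ2 of ubiquinone synthesis was lower at 24 h in HCC1937-EV (-0.42) and at 12 h and 24 h in HCC1937-OE-BRCA1 (-0.55 and -0.45), as was PDSS1 at 24 h in the latter (-0.43). Of 31 other tested genes of fatty acid and lipid synthesis, 24 h of olaparib gave 5 higher and 2 lower ones in HCC1937-EV, with SLC25A10, the mitochondrial dicarboxylate carrier, at 1.122, MLXIPL at 0.72 and HACD2 at -0.59. In HCC1937-OE-BRCA1 at 24 h 4 were higher and 3 lower, with SLC25A10 at -0.89, ME1, the malic enzyme that makes NADPH, at 0.54 and ACSL1 at 0.53, and ACSL1 (0.57) and ACSS2 (0.45), both acyl-CoA synthetases, were higher at 12 h. With the GC and length offset, this last list had 1 higher and 2 lower genes at 24 h in HCC1937-EV, and 5 higher and 4 lower ones at 24 h in the other line.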

How the data were processed

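RNA was extracted with TRIzol and libraries were made with the NEBNext Ultra II RNA kit. The authors deposited raw counts per gene, whole numbers without normalization. The submitters' processing notes name HISAT2, featureCounts, DESeq2 and GRCh38 (hg38). Versions, annotation and strandedness are not given in the sources used here. Of 35044 identifiers, 34966 matched a symbol, and positions, lengths and GC content came from GENCODE release 29, which held 33888 of them. Length was that of all exons of a gene joined, and GC content that of its longest transcript.

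Groups were taken from sample titles. Genes were filtered with filterByExpr and normalised with TMM, and edgeR 4.0.16 (R 4.3.3) fitted 1 mean per condition over 18 libraries. The quasi-likelihood test was used with Benjamini-Hochberg adjustment over 18335 genes, and genes were called at an adjusted p under 0.05. The biological coefficient of variation was 12.9%. With 3 against 3 libraries an exact two-sided permutation test cannot go below p = 0.1, so none is given. CPM and CPM per kilobase were computed from the counts, and errors of fold changes are standard errors.

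The members, the role groups and the pathway lists were chosen with earlier results of these data known. Every member is accounted for, with values in each library for those called in a treatment comparison or differing by over 1 on the log2 scale between the untreated lines, and up to 3 called genes are named per pathway list and comparison. The results of 1 list, sterol synthesis outside the members, are not reported here.

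Alternatives were DESeq2 1.42.0 size factors and Wald test, no filter, at least 10 counts in every library, a minimum log2 fold change of 0.5, only the compared libraries, a replicate block, an offset for GC content and length, block and offset together, and each library left out. The offset was a curve over GC content and exonic length, fitted to each library's log2 deviation from the mean of its line. Genes with both values and above a minimum mean level in the line entered the fit. Of the genes tested, 18076 had a GC value. Treatment changes that follow GC content can enter this curve too, so the offset can also remove them.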

Additional observations from a re-analysis of the deposited data

Results flagged for a closer look

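The response to olaparib at 24 h differed between the lines, by the test of that difference, for 9 of the 31 genes. As the log2 response of HCC1937-OE-BRCA1 minus that of HCC1937-EV, the values were -1.43 for PMVK, -0.556 for FDPS, -0.679 for SCAP, -1.39 for CYP51A1, -0.72 for MVK, -1.31 for MVD, -0.531 for SREBF2, -0.909 for EBP and -0.669 for NSDHL. The adjusted p by edgeR's quasi-likelihood test ran from 0.00122 for PMVK to 0.0247 for MVK.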

How the results depend on the processing

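The called log2 fold changes kept their sign under all alternatives run. Counts of called genes that moved by over 1.5 times were as follows. At 12 h in HCC1937-EV, no filter gave 3, against 2.33% of all genes called. At 24 h in HCC1937-EV, a minimum log2 fold change of 0.5 gave 5 and the compared libraries alone 19. Of all genes, 8.78% and 34.9% were called. At 12 h in HCC1937-OE-BRCA1, the GC and length offset gave 2, with and without the block, against 5.87% and 6.05% of all genes. At 24 h in HCC1937-OE-BRCA1, the minimum fold change gave 1, no filter 4, the offset 6 with and without the block, and the compared libraries alone 0. The shares of all genes were 5.69%, 6.1%, 14.7%, 15.5% and 4.97%. For the difference of responses at 12 h, no filter gave 1, the Wald test 1 and the offset 2 with and without the block. The shares of all genes were 1.84%, 1.78%, 2.83% and 3.05%. At 24 h no filter gave 15 for that difference, against 10.6% of all genes. From 12 h to 24 h in HCC1937-EV, the offset gave 2, or 1 with the block, against 1.16% and 1.14% of all genes. Between the same times in HCC1937-OE-BRCA1, the minimum fold change gave 0, no filter 7, the offset 4 with and without the block, and the compared libraries alone 13. The shares of all genes were 1.19%, 2.74%, 4.33%, 4.71% and 19.6%. The causes were not tested.

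Replicate numbers were not taken to pair the libraries: over 45 pairs with the same number, deviations from the group means correlated at r = -0.424 to 0.528 (median -0.00956, 14 over 0.1), and over 90 other pairs at -0.626 to 0.383 (25 over 0.1). With the replicate block alone, 7 genes were called at 24 h in HCC1937-EV, 1 at 24 h in HCC1937-OE-BRCA1, where PMVK was lost, 23 between the untreated lines, 11 for the difference of responses at 24 h (9 lower and, as higher, SC5D and FADS1), 2 from 12 h to 24 h in HCC1937-OE-BRCA1, and 0 in the other comparisons. For the comparisons with calls, the shares of all genes were 13.3%, 7.52%, 72.7%, 19.1% and 1.45% in the same order.

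Leaving out 1 library gave 0 to 1 calls at 12 h in HCC1937-EV, 0 to 6 at 24 h, 0 to 1 at 12 h in HCC1937-OE-BRCA1, 0 to 7 at 24 h, 20 to 23 between the untreated lines, 0 to 2 and 6 to 15 for the difference of responses at 12 h and 24 h, and from 12 h to 24 h 0 in HCC1937-EV and 0 to 1 in HCC1937-OE-BRCA1. At 24 h in HCC1937-EV the counts were 0, 5 and 3 without untreated replicates 1, 2 and 3, and 4, 2 and 6 without 24 h replicates 1, 2 and 3. In the same order, 2.45%, 8.22%, 5.14%, 3.91%, 3.76% and 11.8% of all genes were called. Without untreated replicate 1 of HCC1937-OE-BRCA1, 7 were called at 24 h, and 15 and 2 for the differences at 24 h and 12 h. In the same order, 17.7%, 29.2% and 4.1% of all genes were called. No member was near 0 at this depth: the lowest values were 3.07 CPM for TM7SF2 in HCC1937-EV and 3.94 CPM for CYP51A1 in HCC1937-OE-BRCA1.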

Other observations

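Of 21 tested genes of fatty acid oxidation, the route opposite to synthesis, 9 were higher and none lower at 24 h in HCC1937-EV, against 8.62% of all genes tested called higher, with ACADS, the short-chain acyl-CoA dehydrogenase, at 1.02 ± 0.18, CPT1C at 0.89 ± 0.28 and ETFB, a subunit of the electron transfer flavoprotein, at 0.86 ± 0.23 on the log2 scale. ACADS measured 8.82, 13.0 and 12.8 CPM untreated and 24.1, 25.3 and 21.2 CPM at 24 h, without overlap. With the GC and length offset 13 were higher and none lower, against 14.4% of all genes called. None of the 21 was called at 12 h, and none at 12 h or 24 h in HCC1937-OE-BRCA1, where 1 and 5 had an unadjusted p under 0.05 by edgeR's quasi-likelihood test. The difference between the lines in the response at 24 h was called for 5 of the 21, all lower in HCC1937-OE-BRCA1, against 11.2% of all genes tested.

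Of 20 tested genes of cholesterol uptake, efflux, storage and oxysterols, 3 were higher at 12 h in HCC1937-OE-BRCA1 (ABCA1 0.80 ± 0.21, LIPA 0.41 ± 0.11 and NPC1 0.41 ± 0.10) and 6 at 24 h, led by ABCA1 (0.76 ± 0.21), ABCG1 (0.73 ± 0.19) and LIPA (0.55 ± 0.11), and none was lower, against 4.71% of all genes tested called higher at 24 h and 2.31% called in all at 12 h. ABCA1, the efflux pump for cholesterol, measured 7.14, 4.80 and 7.75 CPM untreated, 10.9, 12.7 and 10.6 CPM at 12 h and 10.8, 11.6 and 11.0 CPM at 24 h, with each treated library above each untreated one. In HCC1937-EV it was at 0.747 to 2.30 CPM in all 9 libraries. With the GC and length offset, 5 of the 20 were higher at 12 h and 8 at 24 h, against 6.05% and 15.5% of all genes called. In HCC1937-EV 3 of the list were higher at 24 h, NPC2 (0.89), NR1H2 (0.48) and STARD3 (0.37), and 1 with the offset. The difference between the lines at 24 h was called for 6 of the 20, 3 higher and 3 lower in HCC1937-OE-BRCA1, against 8.16% and 11.2% of all genes tested.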
